A study of Mus musculus with 6 samples.

Results

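Genes of DNA replication and nucleotide synthesis were compared between thymus of Rag2/pfp knockout (Rag2/pfp KO) mice and of wild-type mice. The genes were taken from a list of 47 symbols, chosen with earlier results of these data known. The choice may thus bear on the counts set against all genes below. Every probe annotated with one of the symbols was used. Of the 47, 44 were among the 16593 genes on the array, with 70 probes in all. A probe was tested where its detection p-value was under 0.05 on at least 3 of the 6 arrays, which left 38 members among 9849 tested genes. No probe was analysed here for Gins1, Gins2 or Rfc3. The study hybridised RNA of 3 thymus samples of each genotype to Illumina MouseRef-8 bead arrays with a single colour, 1 array for each sample, here named knockout 1 to 3 and wild type 1 to 3. The knockout carries disruptions of Rag2, which encodes a subunit of the recombinase that assembles antigen receptor genes, and of Prf1, whose older name is pfp and which encodes perforin, with which cytotoxic lymphocytes pierce target cells. The wild type carries neither, no treatment was named for either group, and the sources used here give no age, strain or sex. Separate animals are not stated in the labels either, so a p-value sets the genotypes against the spread of these arrays, part of which may be technical.

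DNA replication starts at origins marked by the origin recognition complex, on which Cdc6 and Cdt1 load the Mcm2 to Mcm7 helicase ring (licensing). Cyclin E with its kinase partner and the Cdc7 and Dbf4 kinase then turn the ring into an active helicase with Cdc45 and the GINS complex (firing), after which polymerases, the sliding clamp and its loader, and the enzymes that supply deoxynucleotides carry out synthesis. Transcription of many of these genes rises before S phase under E2F transcription factors. In the thymus, double-negative thymocytes that have made a functional T cell receptor beta chain divide rapidly before they become double-positive, and without Rag2 that chain is not made.

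Each array carried 25697 probes, of which 13729 to 13878 were above background. The Rag2 probe gave log2 signals of 6.98, 6.73 and 7.88 in the knockout, against 9.17, 8.17 and 8.78 in the wild type (difference −1.51, limma adjusted p = 0.0579), and the 2 Prf1 probes differed by −0.64 (adjusted p = 0.0866) and 0.06 (adjusted p = 0.896). The sources used here do not place these probes inside or outside the deleted parts, so the values do not check the genotype. All 7 tested double-positive thymocyte markers were lower in the knockout, with a summed linear signal of 1354 to 2584 against 43831 to 59567 in the wild type, while the probe for Cd8a stayed below background throughout. Of 7 tested double-negative thymocyte markers 5 were higher, with a summed signal of 10916 to 15666 against 3518 to 5591. Cortical epithelium markers were higher for 7 of 8 tested (median difference 2.19), B cell markers lower for 4 of 5 (−3.50) and medullary epithelium markers lower for 2 of 7 (−1.42). The part of these cell types in the results below was not tested. Heart and fat transcripts set arrays apart across genotypes. The 6 tested heart and striated muscle markers had a mean log2 level of 10.73, 12.59 and 5.73 in the knockout, against 5.63, 12.46 and 7.39 in the wild type, and the 6 fat markers had 11.55, 12.72 and 7.92 against 8.48, 12.59 and 9.70. Knockout 1, knockout 2 and wild type 2 were thus the arrays high in both lists. Other marker lists also set the arrays numbered 2 apart. Within each genotype they had the highest mean of endothelial markers (10.49 in the knockout and 9.84 in the wild type). The same held for fibroblast (10.61 and 9.85) and erythroid markers (13.19 and 13.20). Parathyroid, thyroid and airway markers were lowest there (4.70 and 5.48). Xist, a transcript of the inactive X chromosome, read 4.63 to 5.05 on knockout 3 and wild type 2 and 8.80 to 9.40 on the other arrays.

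Lower signals in the knockout thymus were found for the cyclin E genes Ccne1 and Ccne2, the firing factors Cdc45 and Mcm10, the loader gene Cdc6, the single-strand binding genes Rpa1 and Rpa3 and the ribonucleotide reductase gene Rrm2. Of the 38 tested members, these 8 were lower and 0 were higher at an adjusted p under 0.05 in the limma fit over all probes. Every difference below is the log2 signal of the knockout minus that of the wild type, and the values of arrays, listed from number 1 to 3, are normalized log2 signals. Among all tested genes 5.57% were lower and 6.09% were higher by the same rule. At an unadjusted p under 0.05, 24 members were lower and 0 were higher, against 14.2% of all genes lower. The difference was below 0 for 37 of the 38, against 49.2% of all genes. The median difference was −0.75 over the members and 0.01 over all genes, and the members ranged from −2.00 for Rrm2 to 0.05 for Dut. At least 2-fold lower means were found for 7 members, against 6.64% of all genes. In 25 members every knockout array read below every wild-type array, against 17.3% of all genes. Of the 30 members that did not pass, 16 had a 95% interval of the difference wholly below 0 and 14 had one that included 0. In a bulk sample, fewer cells of a type and less RNA per cell cannot be told apart.

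**Figure D1:**
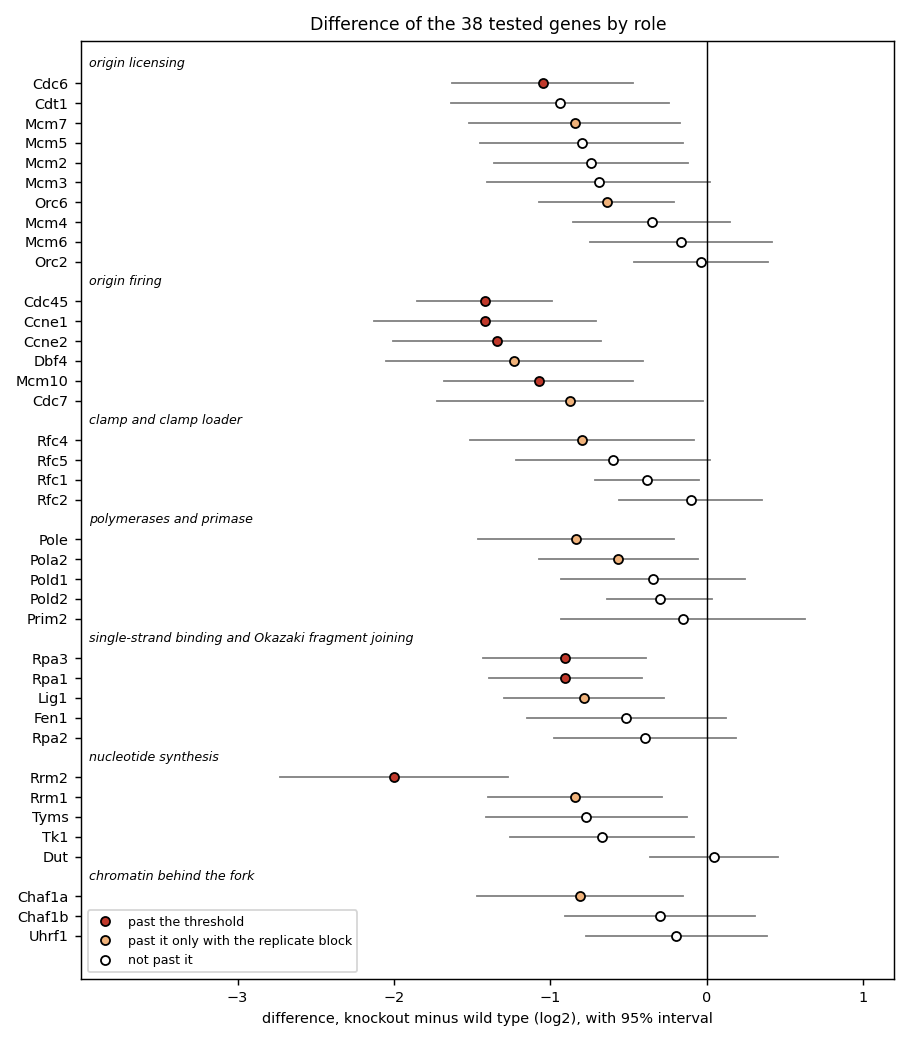
Difference of each of the 38 tested genes, knockout minus wild type in log2 units (points), with the 95% interval of the limma fit (lines), grouped by role. Red points passed an adjusted p of 0.05, orange points passed it only with the replicate number as a block, and white points did not pass; Rrm2 lies farthest to the left at −2.00 and Dut is the only gene to the right of 0.

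Deviations from the group means correlated between same-numbered arrays at 0.75 for number 2, 0.56 for number 3 and only 0.10 for number 1. Knockout 3 followed wild type 1 (0.73) more than wild type 3, and knockout 1 followed wild type 3 (0.108) about as much as wild type 1. The comparison was also made within same-numbered pairs, a pairing that the labels do not state. In the pairs numbered 2 and 3, Xist was low on 1 array and high on the other. Knockout was below wild type in all 3 pairs for 30 of the 38 members, against 31.7% of all genes. With the replicate number as a block, 18 members were lower and 0 were higher, against 11.8% of all genes lower. These 18 held all 8 of the fit without the block, and added Orc6, Mcm7, Cdc7, Dbf4, Rfc4, Pola2, Pole, Lig1, Rrm1 and Chaf1a. Single arrays weighed on the calls of the fit without the block. No member passed without knockout 1, wild type 1 or wild type 3, where 161, 181 and 159 of all tested genes were called in either direction. At an unadjusted p under 0.05 in limma, 19, 12 and 15 members were lower in these fits. The share of all genes lower at that p is not given here, so these counts cannot be set against it. Without knockout 2, 5 passed (Ccne1, Ccne2, Cdc45, Rrm2 and Dbf4). Without knockout 3, 6 passed (Ccne1, Cdc45, Cdc6, Mcm10, Rpa3 and Rrm2), and without wild type 2, 4 passed (Ccne1, Cdc45, Rpa1 and Rrm2). All tested genes called in either direction numbered 1068 without knockout 2, 517 without knockout 3 and 1506 without wild type 2, against 1149 with all arrays. With median centring in place of the quantile step, 4 members passed (Ccne1, Ccne2, Cdc45 and Rrm2), and 946 of all tested genes were called. When both arrays numbered 2 were left out, an alternative added with the data in view, 17 members were lower, against 14% of all genes. When both arrays numbered 1, or both numbered 3, were left out, 0 members passed, with 4 and 3 of all tested genes called. At an unadjusted p under 0.05 in limma, 5 and 18 members were lower, and the share of all genes is again not given. Without knockout 2, the difference of 15 members kept its sign but moved by over 1.5 times, toward 0 in all but Dut. Among these, Cdc7 went to −0.54, Mcm2 to −0.48, Mcm3 to −0.36, Mcm5 to −0.53, Rfc4 to −0.51, Tyms to −0.50 and Tk1 to −0.43. The sign turned without knockout 2 for Mcm6 (to 0.068), Prim2 (to 0.197), Rfc2 (to 0.035) and Uhrf1 (to 0.028).

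The spread was uneven between the genotypes. The standard deviation among knockout arrays exceeded that among wild-type arrays in 35 of 38 members (56.2% of all genes), with a median of 0.43 in the knockout and 0.16 in the wild type (0.28 and 0.25 over all genes). Knockout 2 was the lowest of the 6 arrays for 37 members, against 33.1% of all genes. Wild type 2 was the lowest wild-type array for 28 members, against 55.1% of all genes. Knockout 2 was also the array with the highest heart and fat levels. Summed over the tested markers on the linear scale, the heart list ranged from 2261 to 72362 in the knockout and from 594 to 64384 in the wild type. The fat list ranged from 3875 to 65915 and from 3760 to 59434. Of the 6 tested heart markers, Myh6, Myl7, Actc1 and Ckm were below background on both knockout 3 and wild type 1, while all 6 tested fat markers were above background on all arrays. The part of these transcripts in the size of the differences was not tested.

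**Figure D2:**
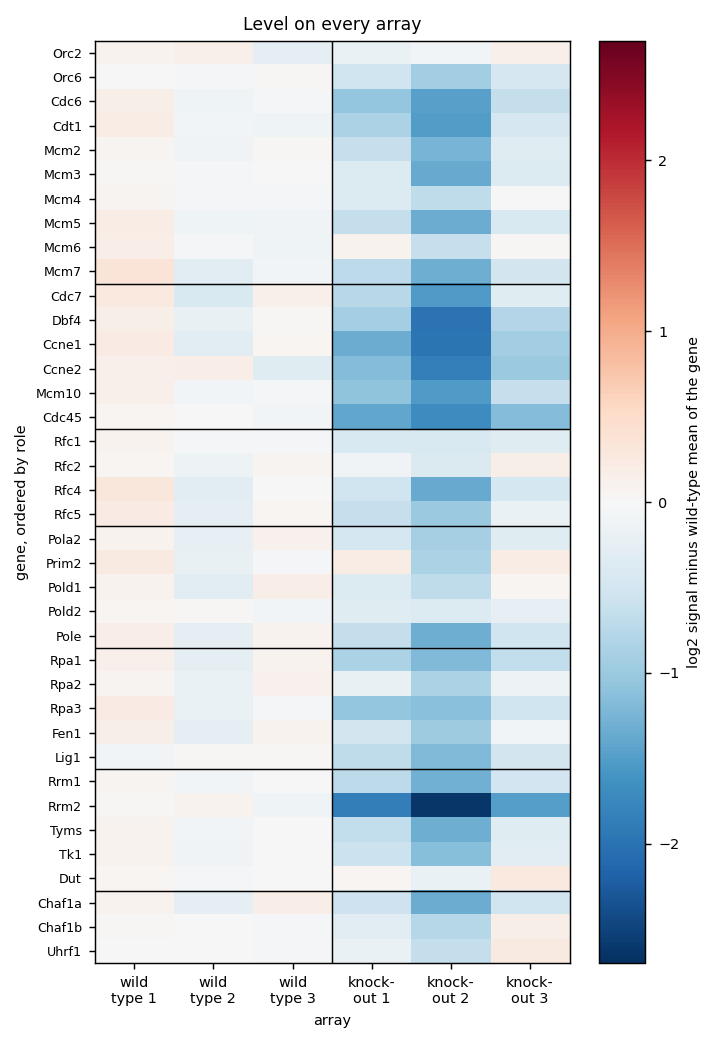
Normalized log2 signal of each tested gene on every array, minus the gene's wild-type mean, with genes in rows ordered by role and arrays in columns. Blue is below the wild-type mean and red above it; knockout 2 is the bluest column, and Rrm2 reaches the darkest blue there.

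Promoter windows of RefSeq (GRCm38.p6), from 250 bases before to 50 bases after the start of each gene, were searched for E2F-type words because many replication genes are known E2F targets and 37 of the 38 tested members had a difference below 0. The words were TTTCGCGC, TTTGGCGC, TTTCCCGC and TTTGCCGC, and CCAAT, the core of the NF-Y site, was searched as well, each on both strands. A window was found for 39 of the 47 members, and 13 of the 39 held an E2F word, against 2.60% of all genes with a window. CCAAT was present in 23 of the 39, against 41.1% of all genes. The words TTTGAA and TTCGAA, the core of the cell cycle homology region of mitotic genes, were present in 8 of the 39, against 21.7% of all genes. Among members lower in the knockout, 1 of 7 with a window held an E2F word (Cdc6), and among tested members that did not pass, 8 of 26 did. The words are exact matches in a window and not measured binding sites. Sites of another sequence or outside the window were not counted, and Ccne2 had no window. These counts therefore do not show which members lack E2F sites. Below, Cdc6 is the member past the threshold with a word, Mcm5 and Mcm6 are helicase genes with overlapping words and a larger and a smaller difference (−0.80 and −0.16), and Rrm2 has the largest difference and no word. Capitals mark E2F words and CCAAT on either strand, which overlap each other in none of the 4 windows, and the sequences run 5′ to 3′ on the strand of the gene.
Cdc6 (GRCm38.p6, chr11:98907901-98908200, plus strand): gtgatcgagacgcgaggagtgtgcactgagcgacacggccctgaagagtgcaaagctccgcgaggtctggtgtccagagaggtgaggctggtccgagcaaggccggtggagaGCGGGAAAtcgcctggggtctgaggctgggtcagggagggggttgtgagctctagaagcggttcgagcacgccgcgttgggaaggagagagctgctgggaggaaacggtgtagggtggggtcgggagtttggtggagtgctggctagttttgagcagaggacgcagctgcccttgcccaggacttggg
Mcm5 (GRCm38.p6, chr8:75109259-75109558, plus strand): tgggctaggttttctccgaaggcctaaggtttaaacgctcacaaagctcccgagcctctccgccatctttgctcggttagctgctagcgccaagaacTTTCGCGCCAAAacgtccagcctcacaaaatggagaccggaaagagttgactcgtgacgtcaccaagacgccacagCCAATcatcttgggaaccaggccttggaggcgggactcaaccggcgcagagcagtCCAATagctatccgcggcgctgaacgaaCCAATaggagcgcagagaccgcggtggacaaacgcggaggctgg
Mcm6 (GRCm38.p6, chr1:128359656-128359955, minus strand): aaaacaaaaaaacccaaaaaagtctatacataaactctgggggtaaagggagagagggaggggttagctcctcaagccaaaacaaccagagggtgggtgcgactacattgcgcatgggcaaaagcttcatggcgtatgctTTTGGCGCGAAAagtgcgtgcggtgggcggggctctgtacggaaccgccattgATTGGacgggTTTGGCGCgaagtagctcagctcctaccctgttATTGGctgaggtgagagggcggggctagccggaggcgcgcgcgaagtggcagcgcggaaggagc
Rrm2 (GRCm38.p6, chr12:24708004-24708303, plus strand): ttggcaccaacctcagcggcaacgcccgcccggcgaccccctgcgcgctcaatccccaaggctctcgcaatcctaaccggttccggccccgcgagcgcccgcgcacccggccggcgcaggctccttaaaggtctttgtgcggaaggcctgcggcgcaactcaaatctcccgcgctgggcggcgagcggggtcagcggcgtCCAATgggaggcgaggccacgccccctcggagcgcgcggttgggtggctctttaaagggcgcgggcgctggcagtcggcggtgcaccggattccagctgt
The Cdc6 word starts at base −138 from the start of the gene. The overlapping words start at −153 and −149 in Mcm5 and at −110 and −106 in Mcm6, which has another at −47. The Rrm2 window holds CCAAT at −50.

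Among the licensing genes, 10 of 12 members were tested, 1 was lower and the median difference was −0.72. Cdc6, the ATPase that loads the helicase ring with Cdt1, read 7.76, 7.34 and 8.16 on the knockout arrays and 8.96, 8.69 and 8.75 on the wild-type arrays. The groups did not overlap, and the mean went from 8.80 ± 0.15 to 7.75 ± 0.41 (SD, n = 3 each), a difference of −1.05 (SE 0.24, adjusted p = 0.0430). The other 3 Cdc6 probes were not tested, being above background on at most 2 arrays. Cdt1, the partner of Cdc6 in loading, read 10.56, 9.91 and 10.96 in the knockout, against 11.61, 11.34 and 11.30 in the wild type. Its groups did not overlap either, but the difference of −0.94 (SE 0.29, adjusted p = 0.0929) did not pass, with a 95% interval of −1.63 to −0.24 and adjusted p = 0.0541 with the block. Gmnn, which encodes the Cdt1 inhibitor geminin, was below background on every array, as was Orc1.

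None of the 6 helicase subunit genes passed, and their differences ran from −0.84 for Mcm7 to −0.16 for Mcm6. Groups did not overlap for Mcm2, Mcm3, Mcm5 or Mcm7. Mcm2 differed by −0.74 and Mcm3 by −0.69, with adjusted p-values of 0.123 and 0.189. Mcm5 differed by −0.80 (SE 0.27, adjusted p = 0.115) and Mcm7 by −0.84 (SE 0.28, adjusted p = 0.111). Mcm7 passed with the block (adjusted p = 0.0351), and the other 5 did not. The representative Mcm6 probe read 11.89, 11.16 and 11.83 in the knockout, against 11.98, 11.74 and 11.67 in the wild type. Knockout 1 and knockout 3 lay within the wild-type range while knockout 2 lay below it, and the interval of the difference was −0.74 to 0.41. The other tested Mcm6 probes differed by −0.24 and −0.09, with adjusted p-values of 0.578 and 0.850. Mcm4 had overlapping groups and a difference of −0.35 (SE 0.21, adjusted p = 0.326). Orc6, a subunit of the origin recognition complex, read 11.03, 10.63 and 11.13 against 11.58, 11.54 and 11.59, without overlap. Its difference was −0.64 (SE 0.18, adjusted p = 0.0730), and adjusted p = 0.0421 with the block. Orc2 was near background, above it on 3 of the 6 arrays, and differed by −0.04 with an interval of −0.47 to 0.39.

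Firing genes held 4 of the 8 members past the threshold, from 6 tested of 8, with a median difference of −1.29. Cdc45, the factor that joins the helicase ring to form the moving helicase, had the lowest adjusted p of all members. It read 9.22, 8.92 and 9.43 in the knockout, against 10.67, 10.62 and 10.54 in the wild type. All knockout arrays lay more than 1 log2 unit below all wild-type arrays, and the mean went from 10.61 ± 0.06 to 9.19 ± 0.26 (SD, n = 3 each), a difference of −1.42 (SE 0.18, adjusted p = 0.00912). Mcm10, which helps to activate the loaded ring, read 10.24, 9.81 and 10.71 against 11.45, 11.25 and 11.27 on its representative probe, a difference of −1.07 (SE 0.25, adjusted p = 0.0452). Its second probe read 8.27, 7.42 and 8.49 against 9.29, 9.02 and 9.32 and differed by −1.15 (SE 0.30, adjusted p = 0.0627), without overlap and not past the threshold.

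Both cyclin E genes, whose products drive entry into S phase, were lower. Ccne1 read 5.99, 5.38 and 6.40 in the knockout, against 7.56, 7.07 and 7.40 in the wild type, and knockout 2 was not above background. The groups did not overlap, and the difference was −1.42 (SE 0.29, adjusted p = 0.0332). Without background correction it was −0.63 and still past the threshold. Ccne2 read 6.97, 6.30 and 7.15 against 8.29, 8.33 and 7.83. It differed by −1.34 (SE 0.27, adjusted p = 0.0317), also without overlap, and by −0.79 without background correction, again past the threshold. Dbf4, the regulatory subunit of the Cdc7 kinase, read 10.08, 9.01 and 10.21 in the knockout, against 11.16, 10.79 and 11.03 in the wild type. Its groups were apart, but the difference of −1.23 (SE 0.34) missed the threshold, with a knockout SD of 0.66 and adjusted p = 0.0715, or 0.0240 with the block. Cdc7, the kinase itself, differed by −0.87 (SE 0.35, adjusted p = 0.168). Its highest knockout array, 11.70, lay above its lowest wild-type array, 11.62, and adjusted p = 0.0313 with the block.

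**Figure D3:**
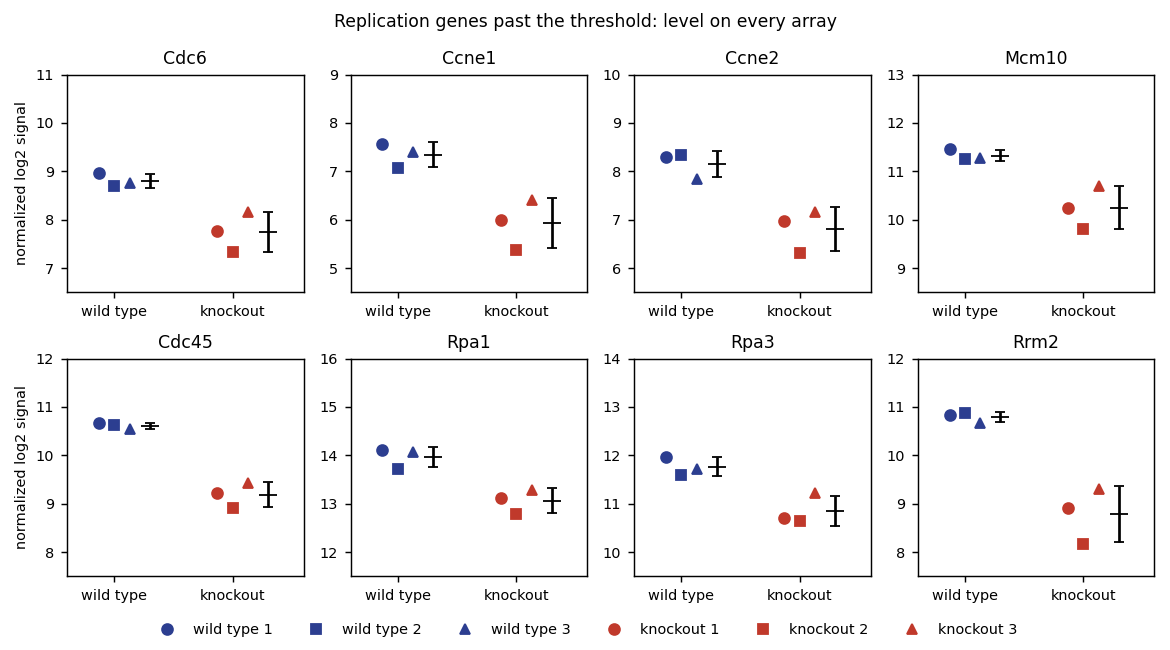
Normalized log2 signal of the 8 members past the threshold on each of the 6 arrays (symbols by replicate number, blue wild type, red knockout), with the mean and SD of each group in black beside the points. The vertical axes span the same range of 4.5 log2 units but start at different levels; in each panel all knockout points lie below all wild-type points and knockout 2 is the lowest.

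No clamp or clamp loader gene passed, with 4 of 6 members tested and a median difference of −0.49. The single probe for Pcna, the sliding clamp, was above background on 2 wild-type arrays and no knockout array and was not tested, with signals of 5.34, 4.99 and 5.29 in the knockout, against 5.83, 5.23 and 5.64 in the wild type. Rfc4, a loader subunit, read 9.21, 8.39 and 9.28 in the knockout, against 10.06, 9.45 and 9.77 in the wild type. The groups did not overlap, with knockout 3 the highest knockout array and wild type 2 the lowest wild-type array, and the difference of −0.80 (SE 0.30, adjusted p = 0.145) passed with the block (adjusted p = 0.0309). A dimmer Rfc4 probe, above background on 5 arrays, differed by −0.08 (SE 0.28, adjusted p = 0.883). Rfc1, the large subunit of the loader, had a small difference of −0.38 with little spread (SE 0.14, adjusted p = 0.134). Rfc5 differed by −0.60 (adjusted p = 0.189) and Rfc2 by −0.10, with an interval of −0.56 to 0.35 for Rfc2.

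Polymerase and primase genes had a median difference of −0.34 over 5 tested of 8 members, and none passed. Pole, the catalytic subunit of the leading strand polymerase, read 8.17, 7.50 and 8.29 in the knockout, against 8.99, 8.55 and 8.93 in the wild type. The groups did not overlap, and the difference was −0.84 (SE 0.26, adjusted p = 0.0962), with adjusted p = 0.0212 with the block. Pola2, a subunit of the polymerase that extends the primer, differed by −0.56 (adjusted p = 0.146, or 0.0380 with the block). The lagging strand polymerase genes differed by −0.34 for Pold1 and −0.30 for Pold2, with adjusted p-values of 0.415 and 0.219. Prim2, the large primase subunit, differed by −0.15 with an interval of −0.93 to 0.63, and its second probe by −0.26 (adjusted p = 0.675). Pola1, Prim1 and Pole2 were below background on every array.

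Among the genes of single-strand binding and Okazaki fragment joining, all 5 were tested, 2 were lower and the median difference was −0.79. Rpa1, the large subunit of the protein that coats single-stranded DNA, read 13.11, 12.78 and 13.29 in the knockout, against 14.11, 13.72 and 14.07 in the wild type. The difference was −0.91 (SE 0.20, adjusted p = 0.0406), without overlap. Rpa3, the small subunit, read 10.71, 10.63 and 11.22 against 11.97, 11.59 and 11.71 and differed by −0.91 (SE 0.22, adjusted p = 0.0478), also without overlap. The middle subunit gene Rpa2 had overlapping groups and differed by −0.40 (SE 0.24, adjusted p = 0.344), its second probe by −0.38. The intervals of the differences of Rpa1 (−1.39 to −0.42) and Rpa2 (−0.98 to 0.19) overlap, and the difference between the 2 was not tested.

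Lig1, the ligase that seals Okazaki fragments, read 10.63, 10.13 and 10.82 in the knockout, against 11.24, 11.35 and 11.34 in the wild type on its representative probe. No array of the knockout reached the wild-type range, and the difference of −0.79 (SE 0.21, adjusted p = 0.0663) passed with the block (adjusted p = 0.0452). Of its other 3 tested probes, those well above background differed by −0.96 and −0.92, and the dimmest, above background on 4 arrays, by −0.11, none of which passed. Fen1, the nuclease that trims the fragments, differed by −0.51 (SE 0.26, adjusted p = 0.262).

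Nucleotide synthesis genes were all tested, and 1 of 5 passed, with a median difference of −0.77. Rrm2, the regulated subunit of ribonucleotide reductase that makes deoxynucleotides, had the largest difference of all members. It read 8.92, 8.16 and 9.30 in the knockout, against 10.83, 10.88 and 10.67 in the wild type. The mean went from 10.80 ± 0.11 to 8.80 ± 0.58 (SD, n = 3 each), with no overlap and a difference of −2.00 (SE 0.30, adjusted p = 0.0145). The second Rrm2 probe read 8.28, 7.43 and 8.22 against 9.76, 9.95 and 9.55 and passed as well, with a difference of −1.78 (SE 0.27, adjusted p = 0.0147). It was the only other probe of a member past the threshold, among 14 such tested probes that all had differences below 0.

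Rrm1, the large subunit of the same enzyme, read 11.31, 10.71 and 11.48 in the knockout, against 12.09, 11.94 and 11.99 in the wild type. Its groups did not overlap, but the difference of −0.84 (SE 0.23, adjusted p = 0.0697) passed only with the block (adjusted p = 0.0359). The intervals of Rrm2 (−2.73 to −1.27) and Rrm1 (−1.40 to −0.28) overlap slightly, and the difference between them was not tested. Tyms, the thymidylate synthase gene, differed by −0.77 (SE 0.27, adjusted p = 0.122) and Tk1, the thymidine kinase gene of the salvage route, by −0.67 (SE 0.24, adjusted p = 0.137), both without overlap. The 3 other tested Tyms probes differed by −0.42 to −0.77 and the other tested Tk1 probe by −0.60, and none passed. Dut, which encodes the enzyme that keeps uracil out of DNA by splitting dUTP, was the exception in direction. It read 8.57, 8.34 and 8.79 in the knockout, against 8.57, 8.46 and 8.53 in the wild type, with a difference of 0.05 and an interval of −0.36 to 0.46 that leaves room for a small difference either way.

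Of the 3 genes that act on chromatin behind the fork, none passed. Chaf1a, the large subunit of the histone chaperone CAF-1, read 10.004, 9.21 and 10.03 in the knockout, against 10.65, 10.29 and 10.72 in the wild type. All knockout arrays lay below all wild-type arrays, and the difference of −0.81 (SE 0.27, adjusted p = 0.115) passed with the block (adjusted p = 0.0254). Its partner Chaf1b differed by −0.30 (SE 0.25, adjusted p = 0.497), and Uhrf1, which directs maintenance methylation to newly made DNA, by −0.19 (SE 0.24, adjusted p = 0.651). For both of these, knockout 3 lay above all wild-type arrays, and knockout 1 and knockout 2 lay below them.

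Further genes of the same pathways were taken from 2 lists, also chosen with earlier results of these data known. Among 35 other tested replication genes, 7 were lower and 0 higher, against 5.57% of all genes lower, and the median difference was −0.62. With the block 14 were lower and 1 higher, against 11.8% of all genes lower. The largest differences past the threshold were those of Esco2 (−1.83), a cohesin acetyltransferase gene, Asf1b (−1.57), a histone chaperone gene, Clspn (−1.37), which encodes the checkpoint mediator claspin, and the topoisomerase gene Top2a (−1.16), with adjusted p-values of 0.0216, 0.0452, 0.0236 and 0.0435. Cdca7 (−0.74, adjusted p = 0.124) and Gins4 (−0.51, adjusted p = 0.166) were the genes of highest mean signal that did not pass. Orc3, a subunit of the origin recognition complex, was the gene higher with the block (0.60, adjusted p = 0.0368 with it and 0.220 without), and is named after its value was seen.

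Of 32 tested genes of purine, pyrimidine, folate and salvage metabolism, 0 were lower and 0 higher at an adjusted p under 0.05 in limma. Among all genes 5.57% were lower and 6.09% higher. At an unadjusted p under 0.05, 4 of the 32 were lower, against 14.2% of all genes, and the median difference was 0.04. With the block 2 were lower, against 11.8% of all genes. These were Dck (−1.18, adjusted p = 0.00908 with the block and 0.0832 without) and Mthfd2 (−0.85, adjusted p = 0.0325 and 0.0920). Both are named after their values were seen. The nucleoside diphosphate kinase genes Nme2 (0.05, adjusted p = 0.878) and Nme1 (−0.02, adjusted p = 0.955) had the highest mean signals. Among 22 tested mitosis genes, for comparison, 16 were lower and 0 higher, against 5.57% of all genes lower. Their median difference was −1.33, but the difference between these lists was not tested. Averaged over the list, the 38 members had a log2 level of 10.18, 9.66 and 10.42 in the knockout, against 10.91, 10.67 and 10.79 in the wild type.

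**Figure D4:**
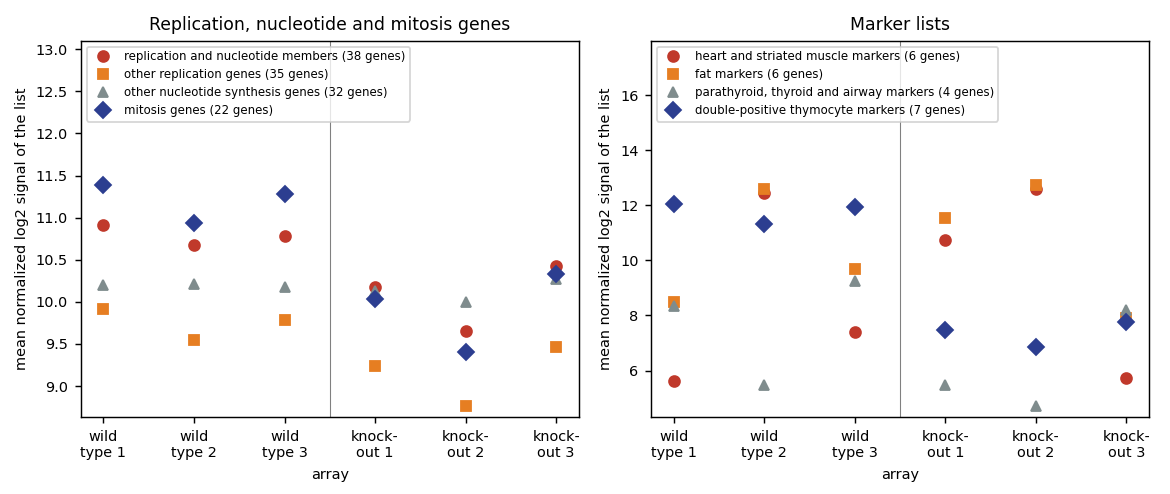
Mean normalized log2 signal of each gene list on every array, with replication, nucleotide and mitosis lists on the left and marker lists on the right. The 38 members stand at 9.66 on knockout 2 and at 10.91 on wild type 1, while heart and fat markers are high on knockout 1, knockout 2 and wild type 2.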

How the data were processed

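Thymus RNA of 3 Rag2/pfp knockout and 3 wild-type samples was measured on Illumina MouseRef-8 version 2 arrays, and groups and replicate numbers were taken from the sample titles. The authors deposited linear probe intensities that were not normalized between arrays, and beside each a detection p-value, per the file headers. GenomeStudio 2011.1 is named in the submitters' processing notes. A second table of log2 values was deposited by the authors; its columns share 1 median of 7.48 and differ from quantile-normalized log2 signals by at most 0.00500, so it is not centred and runs in the direction of higher signal.

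Intensities were background corrected, quantile normalized and logged with neqc (offset 16, background from the detection p-values) in limma 3.58.1 and R 4.3.3. Probes with a detection p under 0.05 on at least 3 of 6 arrays were tested (14097), and for a gene with several tested probes the 1 of highest mean signal stood for it. Genotypes were compared with lmFit and eBayes without a block, with Benjamini-Hochberg adjustment over all tested probes at 0.05, and with 95% intervals from the same fit. Gene names came from the platform annotation (23978 probes with 1 symbol, and 1719 left unnamed, among which any with several symbols were counted). On matching gene IDs to RefSeq, 0 symbols changed.

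Same-numbered arrays deviated together from their group means (correlations of 0.10, 0.75 and 0.56 for numbers 1, 2 and 3), which met the minimum of 0.1 set for pairing, narrowly for number 1, and the pairing comes from the data and not from the labels. Wild type 1 correlated more with knockout 3 (0.73) than with knockout 1. Knockout 1 with wild type 3 (0.108) also met the minimum, so arrays of different numbers met it too. The members and lists were chosen with earlier results of these data known. All members past the threshold, and in each role the largest difference that did not pass, are given with every array. Of each further list, up to 4 genes past the threshold and the 2 brightest others are named. Orc3, Dck and Mthfd2 are named after their values were seen. Precision is limited by having 3 arrays per genotype. Alternatives were another normalization, background correction, offset, the authors' log2 values, detection filters, the replicate number as a block, variance moderation, array weights, other probe choices, and leaving out each array; leaving out a replicate number of both genotypes was added after the data were seen. No fit by BeadChip was made, since the headers do not give the chip of each array.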

Additional observations from a re-analysis of the deposited data

How the results depend on the processing

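The number of members lower in the knockout was 7 to 10 without background correction, with an offset of 50, with the authors' log2 values, with detection on all 6 arrays at 0.01, with a variance trend, and with either other choice of probe. It was 4 with median centring in place of the quantile step and 5 with no detection filter. It was 18 with the replicate block and 33 with array weights, a fit that did not fully converge. When 1 array was left out it ranged from 0 to 6. With both arrays of a replicate number left out, it was 0, 17 and 0 for numbers 1, 2 and 3 in limma. That choice was made with the data in view. At an unadjusted p under 0.05, 5 and 18 members were lower without number 1 and without number 3, with no share of all genes given. The count of members higher was 0 in every fit, also at an unadjusted p under 0.05. All tested genes called numbered 1149, with 946 under median centring and 986 with no detection filter. They numbered 2386 with the replicate block, 7391 with array weights, 159 to 1506 without 1 array, and 3 to 2875 without a replicate number of both genotypes. Other replication and nucleotide genes called numbered 7, and 4 with median centring, 17 with the replicate block, 47 with array weights, 0 to 7 without 1 array, and 0 to 14 without a replicate number of both genotypes. No alternative turned the direction of any of the 8 members past the threshold. The direction turned with array weights for Orc2 (0.018), Mcm6 (0.18) and Prim2 (0.19). When 1 array was left out, the difference ranged from −0.158 to 0.0345 for Orc2, −0.297 to 0.0680 for Mcm6, −0.235 to 0.0351 for Rfc2, −0.328 to 0.197 for Prim2, −0.408 to 0.0277 for Uhrf1 and −0.0654 to 0.162 for Dut. Without replicate 1 of both genotypes it was 0.077 for Orc2, without replicate 2 it was 0.054 for Orc2, 0.038 for Mcm6, 0.099 for Prim2 and 0.033 for Uhrf1, and without replicate 3 it was −0.059 for Dut. The authors' log2 values gave −0.63 for Ccne1 and −0.79 for Ccne2. They differ by at most 0.00500 from quantile-normalized signals without background correction. This alternative and the one without background correction thus use nearly the same data. The causes of the changes between the other alternatives were not tested. Signals near background, such as those of Orc2 and of Ccne1 on knockout 2, limit the differences of those genes.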
